A study of Mus musculus with 20 samples.

Results

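The SLC25 mitochondrial carrier family was followed in mouse hindlimb muscle at the level of messenger RNA. Members were the rows of the count table whose symbol begins with Slc25a and a number, or is Ucp1, Ucp2 or Ucp3, and that reached a CPM of 1 (a count scaled so that all libraries have 1 common total) in at least 5 of 20 libraries. Of 48 carrier rows in the table, 41 met this rule, among 14361 genes of 21844 that passed the same filter. The other 7 were Slc25a2, Slc25a18, Slc25a21, Slc25a31, Slc25a43, Slc25a5-ps and Ucp1. Just inside the rule was Slc25a13, which reached the minimum in 13 libraries with a mean of 1.29 CPM over the samples. Just outside were Slc25a18 and Ucp1, which reached it in 1 library each.

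All mice had the genotype Cre+:iMSBmal1 fl/fl, a floxed Bmal1 gene with an inducible recombinase specific to muscle, so the vehicle groups carried the same alleles as the knockout groups. Per the labels the mice received vehicle or were made muscle-specific Bmal1 knockouts (iMSBmal1KO), and stayed sedentary or were trained on a treadmill daily for 6 weeks. This gives 4 groups of 5 libraries: vehicle sedentary, knockout sedentary, vehicle trained and knockout trained. The labels do not give the promoter that drives the recombinase, the inducing agent, the age or the sex, and they do not say that the libraries of a group came from separate animals, so p-values measure only the spread between these libraries. One label field names the tibialis anterior while others name the gastrocnemius, and the time after the last bout is given as 48 hours in the labels and 47 hours in the series design. The design asks, for the carriers, what the knockout does in each training state, what training does at each knockout status, and whether the 2 act on each other.

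Most members of this family are small proteins of the inner mitochondrial membrane. These exchange nucleotides, phosphate, carboxylic acids, amino acids, acylcarnitines, cofactors and metal ions between cytosol and matrix. In skeletal muscle the exchange of ATP for ADP by the adenine nucleotide translocase, together with phosphate import, couples oxidative phosphorylation to contraction, and other carriers bring in fuel or shuttle reducing equivalents. BMAL1, with its partner CLOCK, is the activator of the circadian clock and binds E-box motifs, whose canonical letters are CACGTG.

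The upstream sequences of the 2 carriers that differed most clearly in both training states are shown because each holds an E-box or a variant of one. They run 5′ to 3′ towards the gene, hold only bases upstream of every annotated start, and come from RefSeq (GRCm38.p6). The first is chr14:75787038-75787287 on the minus strand, and its capitals mark AACGTG, the reverse complement of CACGTT, which ends 39 bases before the first annotated start. The second is chr9:97111158-97111291 on the minus strand, and its capitals mark CACGTG, 66 bases before the start.
Slc25a30: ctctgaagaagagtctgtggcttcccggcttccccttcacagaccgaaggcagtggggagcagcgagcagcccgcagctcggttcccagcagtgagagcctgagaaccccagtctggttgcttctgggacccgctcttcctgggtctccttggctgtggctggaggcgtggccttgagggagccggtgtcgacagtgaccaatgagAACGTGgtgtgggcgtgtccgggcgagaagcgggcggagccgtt
Slc25a36: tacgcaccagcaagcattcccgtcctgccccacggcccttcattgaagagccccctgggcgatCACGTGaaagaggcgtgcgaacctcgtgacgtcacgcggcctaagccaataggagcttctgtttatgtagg

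Of the 41 members, 32 had a promoter in the RefSeq table, which spans 250 bases before to 50 after each start. CACGTG, which reads the same on both strands, was in a window of 6 of the 32 (Slc25a1, Slc25a13, Slc25a14, Slc25a15, Slc25a33 and Slc25a36), which is 18.8% of them, against 8.09% of all 27025 genes in the table. CACGTT on either strand was in a window of Slc25a28 and Slc25a30, or 6.25% of the 32, against 5.44% of all genes in the table. By window, CACGTG was in 7 of 41 carrier windows and in 7.15% of all 32851, and CACGTT in 2 of 41 and in 4.68%. The 2 motifs differ in 1 letter, so the same bases cannot match both. Both were searched after the expression values were known, and no other variant of CACGTG was searched. A match describes letters, not binding. Among the 6 genes with CACGTG the knockout comparisons went different ways: Slc25a36 was higher, Slc25a33 and Slc25a15 were lower in sedentary libraries labelled knockout in the fit without vehicle-trained library 2 described below, and Slc25a1, Slc25a13 and Slc25a14 did not pass the test in either training state.

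The libraries held 10610333 to 19153527 estimated counts each. Knockout-trained libraries 1 and 4, and 3 and 5, differed from each other by little more than counting noise, and each pair was counted as 1 sample, which leaves 18 samples and n = 3 for that group. Arntl, the symbol of Bmal1 in the table, gave no lower values under the knockout label: 6.79 ± 0.890 CPM (SD, n = 5) in vehicle sedentary and 13.2 ± 3.28 CPM (SD, n = 5) in knockout sedentary libraries, and 6.45 ± 0.156 CPM (SD, n = 4) in vehicle trained libraries other than library 2 against 10.9 ± 4.45 CPM (SD, n = 3) in knockout trained samples. The count of a whole gene cannot show whether a floxed part of it was removed, so these values do not decide whether the knockout label holds. Every direction below is between libraries labelled knockout and libraries labelled vehicle. Vehicle-trained library 2 stood apart, with 132.3 CPM of Arntl, and results in which it matters are given with and without it. The summed CPM of 10 skeletal muscle fibre markers was 67582 to 90013.5 in all samples but vehicle-trained library 2, where it was 49924.9.

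On a scale of CPM per kilobase of exon, averaged over the 17 samples other than vehicle-trained library 2, Slc25a4, the muscle adenine nucleotide translocase, was at 1331, Slc25a3, the phosphate carrier, at 116.3, and Slc25a11, the oxoglutarate-malate carrier, at 79.2. Slc25a12, the calcium-regulated aspartate-glutamate carrier, followed at 45.1, Ucp3, the uncoupling protein of skeletal muscle, at 32.7, and Slc25a5, the second adenine nucleotide translocase, at 28.3. Slc25a46, Slc25a20, Slc25a51 and Slc25a39 completed the first 10 with 15.5, 15.4, 11.7 and 11.0, and Slc25a53 was lowest at 0.251. Between neighbours in this order the values of 17 samples were separate only for Slc25a4 over Slc25a3, Slc25a11 over Slc25a12, and Slc25a5 over Slc25a46, and all other neighbours overlapped. Lengths were those of GENCODE M21, and Slc25a5 has near-identical pseudogene copies that could take part of its reads.

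**Figure D1:**
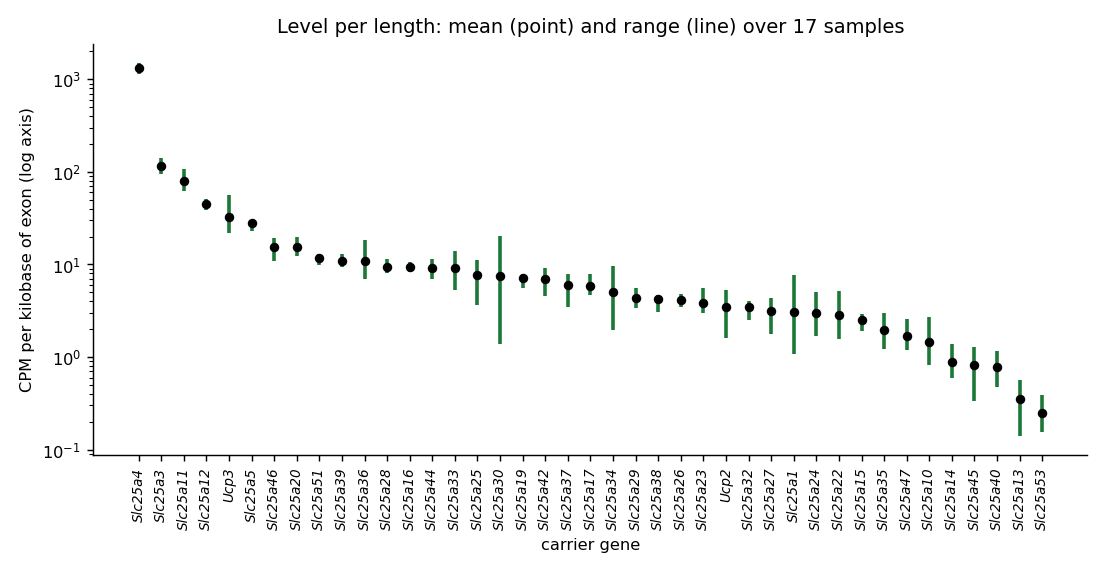
CPM per kilobase of exon (log axis) for the 41 carrier genes, as the mean (point) and the range (line) over 17 samples, without vehicle-trained library 2. Slc25a4 stands at 1331 with no other carrier above 140.7, and Slc25a30 has one of the widest ranges.

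In plain CPM, by library with near-identical pairs kept apart, the family summed to 5191.96 to 5555.52 in vehicle sedentary and 5119.07 to 5937.14 in knockout sedentary libraries. It summed to 5634.99 to 5848.26 in knockout trained libraries. In vehicle trained libraries it was 3987.97 to 5135.89, so every one of these lay below every vehicle sedentary and every knockout trained library. The lowest was library 2. Slc25a4 made up 55.6% to 61.8% of the carrier CPM in each library apart from vehicle-trained library 2, where it made up 36.7%. Relative variation over the 17 samples (standard deviation as a percentage of the mean CPM) was 6.72% for Slc25a5, the lowest of the family, 8.26% for Slc25a4 and 82.5% for Slc25a30, the highest.

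In sedentary muscle 3 of 41 carriers passed an adjusted p of 0.05 between knockout and vehicle (quasi-likelihood test of edgeR, adjusted by Benjamini-Hochberg over 14361 genes), where 2.33% of all tested genes did. Slc25a36, a carrier of pyrimidine nucleotides, rose, and Slc25a30, a relative of the uncoupling proteins also known as kidney mitochondrial carrier protein 1, and Slc25a20, the carnitine-acylcarnitine carrier that brings long-chain fatty acids into the matrix, fell. The median log2 change was -0.04 over the carriers and 0.01 over all tested genes, and 17 of 41 carriers had a change above 0, against 52.3% of all genes. The 2 groups were fully separate for 7 of 41 carriers, against 9.4% of all genes. Without vehicle-trained library 2, which is not in either group but enters the shared estimate of spread, 6 of 41 passed, where 6.97% of all genes did. The 3 added were Slc25a37, Slc25a33 and Slc25a15, all lower. In bulk tissue fewer cells of a type and less RNA per cell cannot be told apart.

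Slc25a30 (ENSMUSG00000022003; chr14:75760117-75787037, minus strand, GRCm38) was at 80.9, 45.0, 35.2, 48.8 and 56.3 CPM in vehicle sedentary libraries 1 to 5. It was at 9.07, 9.04, 9.94, 7.04 and 7.59 CPM in the knockout sedentary libraries. Each of the latter lay below each of the former. The mean fell from 53.2 ± 17.2 to 8.53 ± 1.19 CPM (SD over 5 libraries each), a log2 difference of -2.70 (SE 0.366), or 6.51-fold lower (edgeR adjusted p = 0.000221).

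Slc25a30 showed the same separation in trained muscle. It was at 55.2, 11.4, 51.7, 93.4 and 55.9 CPM in vehicle trained libraries 1 to 5, and at 6.98 (libraries 1 and 4), 10.9 (library 2) and 6.27 (libraries 3 and 5) CPM in knockout trained samples. The low vehicle value is library 2, which was still above all 3 knockout samples. On the log2 scale knockout minus vehicle was -2.67 with SE 0.447 (edgeR adjusted p = 0.00223), and -2.93 with SE 0.280 without that library (adjusted p = 2.22e-06). The 2 knockout effects share no library, and their difference was 0.03 on the log2 scale with SE 0.532 (edgeR interaction, adjusted p = 0.9896), and -0.24 with SE 0.340 without vehicle-trained library 2 (adjusted p = 0.844).

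Slc25a36 (ENSMUSG00000032449; chr9:97074961-97111157, minus strand, GRCm38) moved the other way. It was at 89.7, 71.8, 79.1, 90.8 and 79.6 CPM in the vehicle sedentary libraries and at 175.3, 141.0, 132.3, 143.9 and 152.2 CPM in sedentary libraries labelled knockout. The groups did not overlap. The mean rose from 82.2 ± 8.0 to 148.9 ± 16.4 CPM (SD over 5 libraries each), a log2 difference of 0.80 (SE 0.123), or 1.74-fold (edgeR adjusted p = 0.000851).

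In trained muscle Slc25a36 was at 66.7, 65.5, 76.6, 78.7 and 73.9 CPM in vehicle libraries and at 151.8, 85.1 and 108.5 CPM in knockout samples. The knockout samples were all above the vehicle libraries, knockout library 2 nearest to them. In the fit of all samples the log2 change was 0.70 with SE 0.140 (edgeR adjusted p = 0.00821), and 0.69 with SE 0.135 without vehicle-trained library 2 (adjusted p = 0.00296). The difference between the 2 knockout effects was -0.10 with SE 0.188 (edgeR interaction, adjusted p = 0.894). Over 17 samples log2 CPM of Slc25a36 and Slc25a30 correlated at r = -0.88, a description over samples that hold the same 4 groups.

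**Figure D2:**
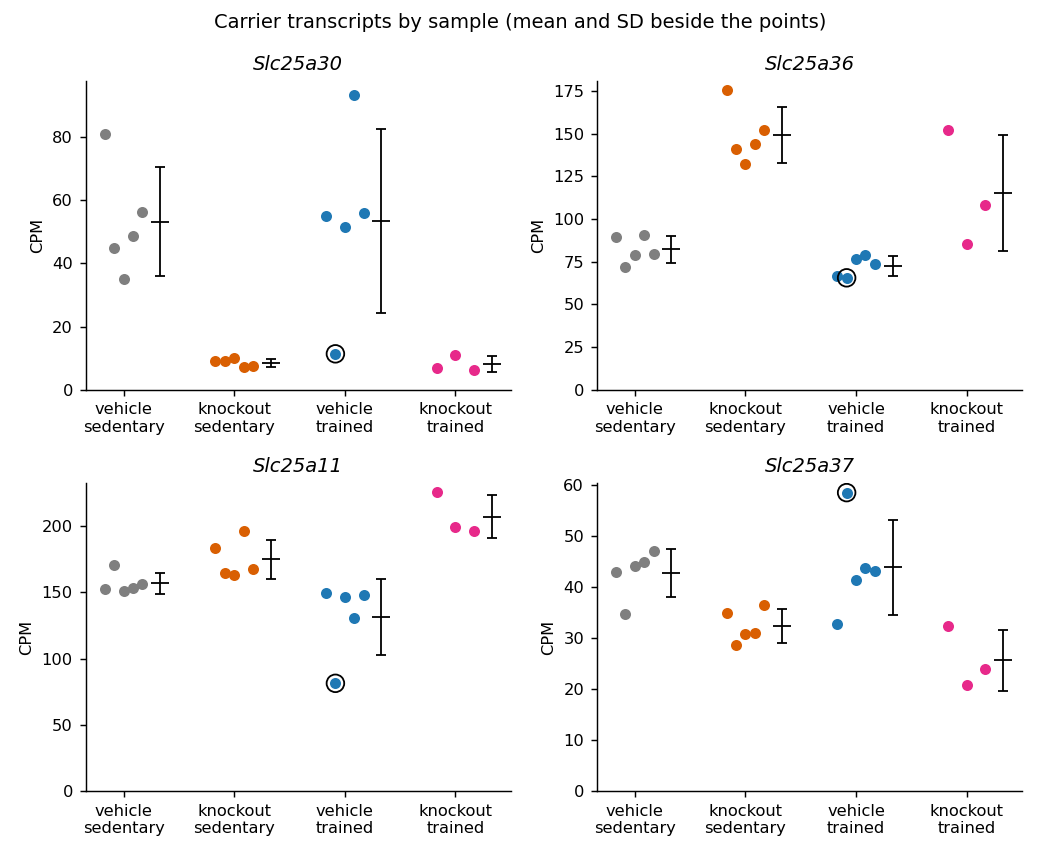
CPM of Slc25a30, Slc25a36, Slc25a11 and Slc25a37 in each of 18 samples by group, with the mean and SD beside the points and vehicle-trained library 2 ringed. Slc25a30 lies at 6.27 to 10.9 CPM in all 8 samples labelled knockout and at 11.4 CPM or above in all 10 labelled vehicle.

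Slc25a20 (ENSMUSG00000032602; chr9:108662088-108684641, plus strand, GRCm38) was at 91.6, 86.9, 81.1, 94.9 and 80.5 CPM in the vehicle sedentary libraries and at 59.3, 63.6, 74.3, 78.9 and 65.0 CPM in sedentary libraries labelled knockout. The groups did not overlap, though the nearest values were 78.9 and 80.5. Its log2 difference was -0.40 with SE 0.105 (edgeR adjusted p = 0.0498), and the call was lost in 16 of 28 alternative settings, with adjusted p up to 0.173. In trained muscle Slc25a20 was at 68.4 ± 6.09 CPM (SD, n = 5) in vehicle and 71.1 ± 5.00 CPM (SD, n = 3) in knockout samples, a log2 difference of 0.10 (SE 0.120, edgeR adjusted p = 0.705). The knockout effects in the 2 states differed by 0.50 with SE 0.159, which did not pass (edgeR interaction, adjusted p = 0.605).

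Of the 3 carriers that passed only without vehicle-trained library 2 in the sedentary comparison, Slc25a33, another pyrimidine nucleotide carrier, was at 21.3, 19.7, 26.1, 23.0 and 19.3 CPM in vehicle and 16.2, 17.1, 10.8, 10.04 and 11.4 CPM in knockout libraries. These groups did not overlap. Its log2 change was -0.79 with SE 0.546 in the fit of all samples (edgeR adjusted p = 0.806) and -0.78 with SE 0.146 without library 2 (adjusted p = 0.00160). Library 2 itself held 171.9 CPM of this transcript. Slc25a15, the ornithine carrier of the urea cycle, was at 15.9 ± 0.572 CPM in vehicle and 12.8 ± 1.26 CPM in knockout libraries (SD, n = 5 each), with a log2 change of -0.36 and SE 0.0949 without library 2 (adjusted p = 0.0249).

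Slc25a37, mitoferrin 1, which brings iron into the matrix, was at 42.9, 34.8, 44.0, 44.9 and 47.1 CPM in the vehicle sedentary libraries and 34.9, 28.6, 30.8, 30.9 and 36.5 CPM in sedentary libraries labelled knockout. These groups overlapped at vehicle library 2. On the log2 scale knockout minus vehicle was -0.46 with SE 0.155 (edgeR adjusted p = 0.190), and -0.45 with SE 0.116 without vehicle-trained library 2 (adjusted p = 0.0201). Its exons overlap those of 2 predicted genes on the other strand in GENCODE M21, and the strandedness of the libraries is not given in the sources used here.

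In trained muscle 4 of 41 carriers differed between knockout and vehicle samples, where 3.29% of all tested genes did. Slc25a36 and Slc25a11 rose, and Slc25a30 and Slc25a37 fell. The median log2 change was 0.08 over the carriers and -0.03 over all genes, and 28 of 41 carriers had a change above 0, against 46.8% of all genes. The 2 groups were fully separate for 8 of 41 carriers, against 7.95% of all genes. Without vehicle-trained library 2, 6 of 41 passed, where 8.66% of all genes did, with Slc25a3 and Slc25a34 added, both higher. With only the trained groups in the fit 0 of 41 passed (edgeR). The edgeR adjusted p was then 0.159 for Slc25a30, 0.283 for Slc25a36, 0.363 for Slc25a11 and 0.403 for Slc25a37. The log2 changes differed from those above by at most 0.01. The share of all genes passing in that fit is not given, so the 0 cannot be read as particular to the carriers.

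Slc25a11 (ENSMUSG00000014606; chr11:70644196-70647479, minus strand, GRCm38), the oxoglutarate-malate carrier of the malate-aspartate shuttle, was at 149.6, 81.4, 146.4, 130.7 and 148.2 CPM in vehicle trained libraries. It was at 225.3, 199.2 and 196.5 CPM in knockout trained samples, all above the vehicle libraries. In the fit of all samples the log2 change was 0.70 with SE 0.146 (edgeR adjusted p = 0.0114), and 0.59 with SE 0.0978 without vehicle-trained library 2 (adjusted p = 0.000775). Without knockout-trained libraries 3 and 5 the adjusted p was 0.0580.

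In sedentary muscle Slc25a11 was at 156.7 ± 8.08 CPM in vehicle and 174.7 ± 14.4 CPM in knockout libraries (SD, n = 5 in both), a log2 difference of 0.10 (SE 0.129, edgeR adjusted p = 0.970). The knockout effects in the 2 states differed by 0.60 with SE 0.195, which did not pass (edgeR interaction, adjusted p = 0.609). Its exons overlap those of Rnf167 on the other strand in GENCODE M21. The summed CPM of the muscle fibre markers was 67583.1 to 83286.9 in vehicle trained libraries without library 2 and 71927.6 to 90013.5 in knockout trained samples, with 0 of 10 markers passing in the fit of all samples (edgeR) and 1 (Mylpf, higher) without library 2. Their part in the carrier results was not tested.

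Slc25a37 was at 32.7, 58.5, 41.3, 43.6 and 43.1 CPM in vehicle trained libraries and at 32.3, 20.8 and 23.9 CPM in knockout trained samples. The groups did not overlap, with 32.7 in vehicle library 1 and 32.3 in knockout libraries 1 and 4 as the nearest values. Its log2 difference was -0.75 with SE 0.183 (edgeR adjusted p = 0.0297), and -0.59 with SE 0.142 without vehicle-trained library 2 (adjusted p = 0.0136). The call was lost without knockout-trained library 2 (adjusted p = 0.136) and without libraries 3 and 5 (adjusted p = 0.140). The 6 blood markers summed to 514.3 to 2050.7 CPM in vehicle trained and 429.4 to 2892.9 CPM in knockout trained samples, with 0 of 5 tested markers passing (edgeR), and their part in this result was not tested.

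Slc25a3 (ENSMUSG00000061904; chr10:91116574-91124059, minus strand, GRCm38), which carries phosphate for ATP synthesis, was at 690.1, 628.1, 560.8, 547.9 and 604.8 CPM in vehicle trained libraries. It was at 780.8, 750.2 and 754.4 CPM in knockout trained samples. The groups did not overlap. On the log2 scale knockout minus vehicle was 0.37 with SE 0.114 (edgeR adjusted p = 0.0910), and 0.41 with SE 0.106 without vehicle-trained library 2 (adjusted p = 0.0219).

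Slc25a34, a carrier of unassigned substrate, was at 9.64, 15.9, 6.15, 5.29 and 5.29 CPM in vehicle trained libraries and at 15.8, 12.2 and 16.9 CPM in knockout trained samples. The high vehicle value is library 2, the only one within the knockout range. In the fit of all samples the log2 change was 0.85 with SE 0.324 (edgeR adjusted p = 0.180), and 1.26 with SE 0.243 without that library (adjusted p = 0.00275). Its knockout effects in the 2 states differed by 0.51 with SE 0.433 (edgeR interaction, adjusted p = 0.763), and by 0.92 with SE 0.313 without that library (adjusted p = 0.284).

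**Figure D3:**
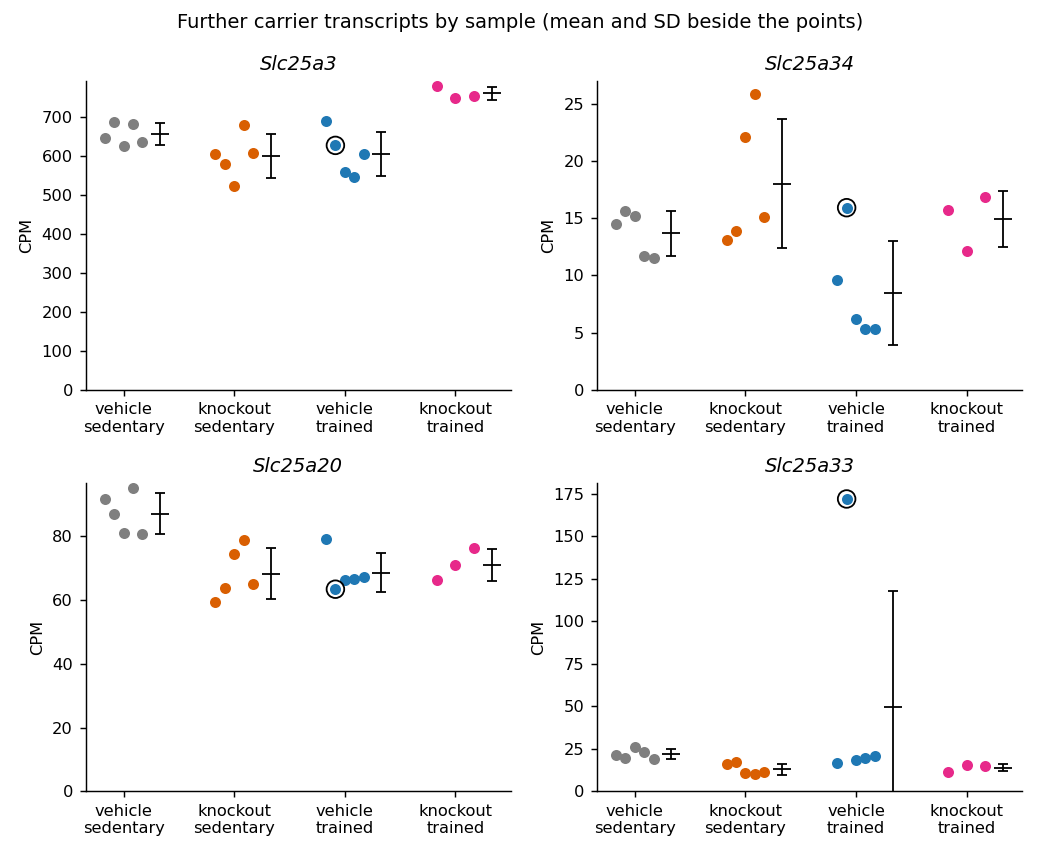
CPM of Slc25a3, Slc25a34, Slc25a20 and Slc25a33 in each of 18 samples by group, with the mean and SD beside the points and vehicle-trained library 2 ringed. For Slc25a33 this library is at 171.9 CPM, where the other 17 samples lie at or below 26.1 CPM, and the SD bar of its group runs below the axis.

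Grouped by role, the 8 members among the adenine nucleotide and phosphate carriers had no call in either knockout comparison in the fit of all samples (edgeR). Their median log2 change was -0.01 in sedentary and 0.16 in trained muscle. Slc25a4, whose transcript makes up most of the family, was at 3114.6 ± 103.5 CPM in the vehicle sedentary libraries and 3235.6 ± 241.8 CPM in sedentary libraries labelled knockout (SD, n = 5 each). In trained muscle it was at 2819.0 ± 138.3 CPM in vehicle libraries without library 2 (SD, n = 4) and 3405.2 ± 182.2 CPM in knockout samples (SD, n = 3), a log2 change of 0.34 with SE 0.108 that did not pass (edgeR adjusted p = 0.0559). With library 2, at 1464 CPM, it was 0.47 with SE 0.165 (adjusted p = 0.141).

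Among the 5 uncoupling proteins and their relatives that were members, Slc25a30 alone passed in either state. Ucp3 was at 97.7 ± 22.8 CPM in vehicle and 117.9 ± 41.1 CPM in sedentary libraries labelled knockout (SD, n = 5 each), with a log2 change of 0.21 and SE 0.237 (edgeR adjusted p = 0.963). Ucp2, which is also expressed in immune cells, was at 18.7 ± 5.50 and 26.8 ± 7.36 CPM in the same groups, with a log2 change of 0.47 and SE 0.241 (edgeR adjusted p = 0.571). The 6 macrophage markers summed to 45.8 to 198.6 CPM in the vehicle sedentary libraries and 72.8 to 212.8 CPM in sedentary libraries labelled knockout, and their part in the Ucp2 values was not tested. Ucp1, the uncoupling protein of brown fat, was at 1.72 CPM in vehicle-sedentary library 3 and at 0 in the other 19 libraries, where a count of 0 allows up to 3 counts.

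Of the 11 members listed with the amino acid carriers, none passed in either knockout comparison in the fit of all samples (edgeR), and Slc25a15 fell in sedentary muscle without vehicle-trained library 2. In trained muscle Slc25a22, a glutamate carrier, had a log2 change of 0.87 with SE 0.289 that did not pass (edgeR adjusted p = 0.121). This was the highest of the family in the fit of all samples, while without vehicle-trained library 2 it was 0.74, below the 1.26 of Slc25a34. It was at 12.01, 6.21, 10.2, 14.1 and 12.8 CPM in vehicle trained libraries and at 24.5, 16.4 and 17.6 CPM in knockout trained samples, so the groups did not overlap. Slc25a12, the most abundant of the class, was at 347.2 ± 22.0 and 331.1 ± 26.2 CPM in vehicle and knockout sedentary libraries (SD, n = 5 each) and did not pass.

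Of the 3 members among the di- and tricarboxylate carriers, 1 passed, Slc25a11 in the trained comparison. Slc25a1, the citrate carrier, and Slc25a10, the dicarboxylate carrier, both serve lipid synthesis in fat cells. Their log2 CPM correlated at r = 0.87 over 17 samples, a description over samples of 4 groups. Both were highest among the 17 in vehicle-trained library 1, at 16.5 and 9.28 CPM, where the 8 adipocyte markers summed to 1133.8 CPM, against 227.6 to 734.0 CPM in the other 16. The part of adipocyte RNA in these values was not tested. The 9 members among the cofactor, nucleotide and metal carriers held 1 rise in sedentary muscle and 1 rise and 1 fall in trained muscle, those of Slc25a36 and Slc25a37 described above.

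**Figure D4:**
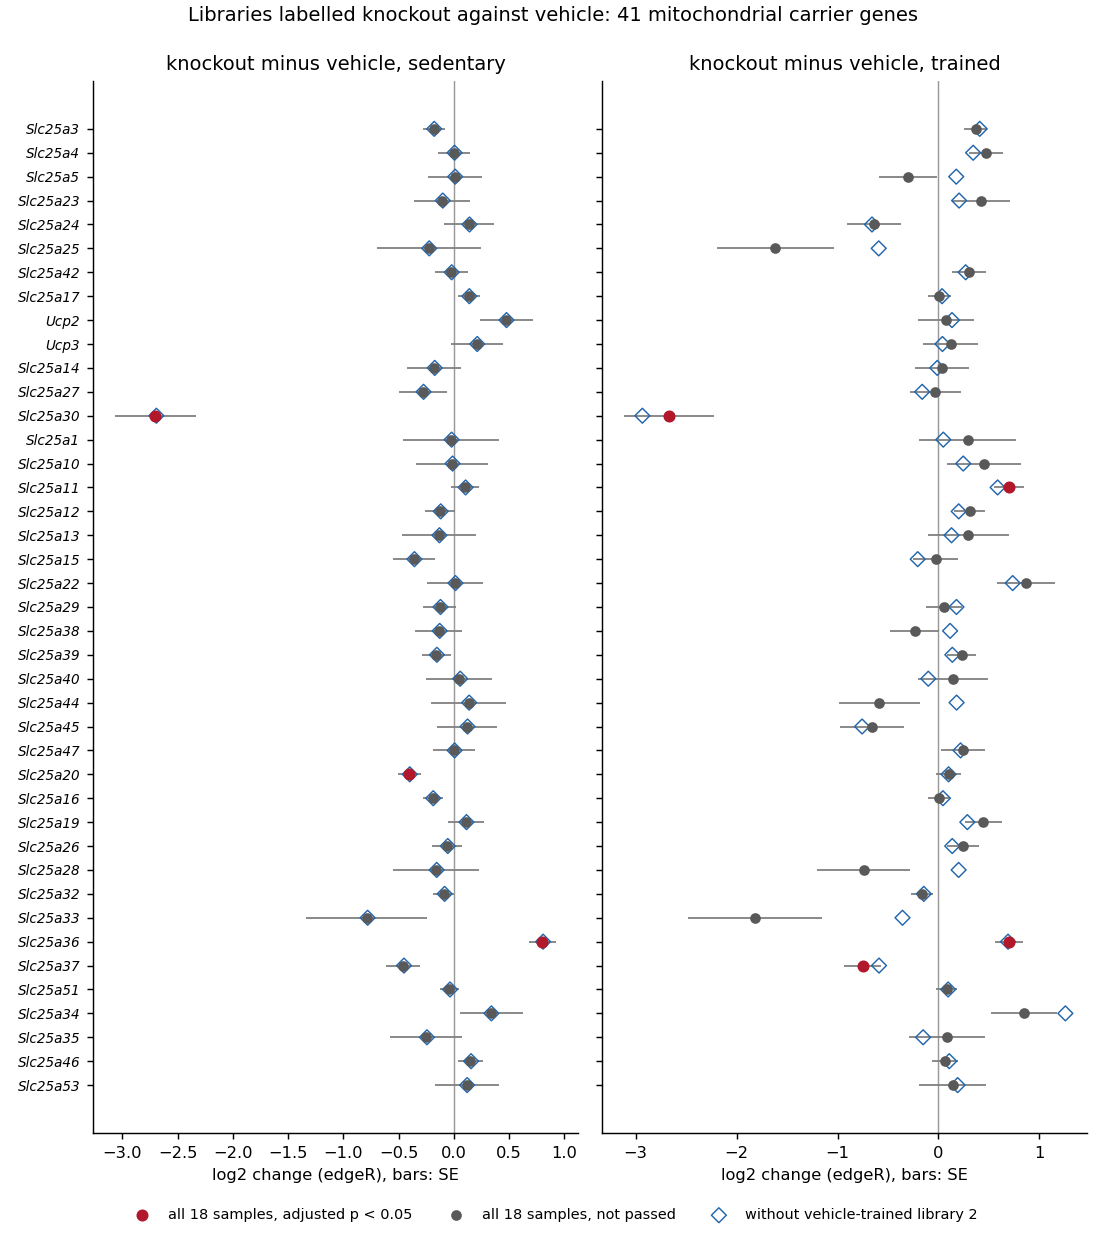
Log2 change of knockout minus vehicle for the 41 carriers, ordered by role, in sedentary and trained muscle: points with SE bars from the fit of all 18 samples (red where the adjusted p passed 0.05) and open diamonds from the fit without vehicle-trained library 2. Slc25a30 lies at -2.70 and -2.67, and Slc25a33 and Slc25a25 in trained muscle move most between the fits.

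For training in vehicle muscle, 0 of 41 carriers passed in edgeR, where 0% of all genes did, with 7 members at an unadjusted p under 0.05, against 15.2% of all genes, and 0 passed in DESeq2 and in limma. The median log2 change was -0.09 over the carriers and 0.03 over all genes. The 2 groups were fully separate for 4 of 41 carriers, all lower after training, where 2.98% of all genes did not overlap and 2.73% did so with lower values. These were Slc25a20, Slc25a42, Slc25a22 and Slc25a11. Slc25a20 was at 87.0 ± 6.34 CPM in the vehicle sedentary libraries and 68.4 ± 6.09 CPM in vehicle trained libraries (SD, n = 5 in both), a log2 difference of -0.30 (SE 0.104, edgeR adjusted p = 0.272). Slc25a42, a carrier of coenzyme A, was at 45.1 ± 2.60 and 32.9 ± 5.07 CPM in the same groups, a log2 difference of -0.41 (SE 0.147, edgeR adjusted p = 0.274).

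The largest rises with training in vehicle muscle came with library 2. Slc25a33 had a log2 change of 1.28 with it and -0.18 without it, Slc25a25 0.94 and -0.07, Slc25a28 0.76 and -0.16, and Slc25a44 0.56 and -0.19, so the sign of each turned. Slc25a1 and Ucp2 kept theirs, at 0.63 and 0.88 for Slc25a1 and 0.57 and 0.52 for Ucp2, and neither passed. The largest falls were -0.74 for Slc25a13, -0.65 for Slc25a22, -0.63 for Slc25a34, -0.41 for Slc25a42 and -0.33 for Slc25a27, none of which passed. Without library 2 the value for Slc25a34 was -1.03 with SE 0.222, and it did not pass either (edgeR adjusted p = 0.274), and that for Slc25a27 was -0.18.

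For training in knockout muscle, 0 of 41 carriers passed in edgeR, where 0% of all genes did, with 3 members at an unadjusted p under 0.05, against 9.69% of all genes. In DESeq2 1 passed, Slc25a3, and in limma 0 passed. The groups did not overlap for 4 of 41 carriers, against 11.9% of all genes. Slc25a3 was at 605.0, 581.4, 525.0, 680.8 and 609.2 CPM in sedentary libraries labelled knockout, all below the knockout trained samples. Its log2 difference was 0.48 with SE 0.113 (edgeR adjusted p = 0.124), and without vehicle-trained library 2 it was 0.49 with SE 0.101 and passed (adjusted p = 0.0341), where 0.843% of all genes did. Slc25a1 and Slc25a10 had the largest changes, 0.95 with SE 0.482 and 0.58 with SE 0.365, and did not pass.

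For the difference in training effect between knockout and vehicle muscle, 0 of 41 carriers passed in edgeR, where 0% of all genes did, with 7 members at an unadjusted p under 0.05, against 7.5% of all genes, while 1 passed in DESeq2 (Slc25a3) and 0 in limma. The median difference was 0.20 over the carriers and -0.02 over all genes. The smallest adjusted p of a member was 0.605, for Slc25a3, with a difference of 0.55 and SE 0.151, and for Slc25a20, with 0.50 and SE 0.159. In the fit of all samples the highest difference was 0.85 for Slc25a22 and the lowest -1.39 for Slc25a25. Without vehicle-trained library 2 these were 0.72 and -0.37, and Slc25a34 was above Slc25a22 at 0.92. The lowest difference was then not that of Slc25a25 but -0.88, within the amino acid carriers.

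Vehicle-trained library 2 differed from the other 4 of its group in many carriers. On log2(CPM + 0.5), 7 of 41 were over 2-fold higher in it, against 10.4% of all genes, and 8 of 41 over 2-fold lower, against 20% of all genes. It held the lowest value of all 18 samples for 18 of 41 carriers, against 35.6% of all genes, and the highest for 7 of 41, against 24.6%. Highest were Slc25a33 (171.9 CPM, against 16.8 to 20.6 in the other 4), Slc25a25, a calcium-regulated ATP-magnesium-phosphate carrier (368.5, against 37.0 to 85.7), Slc25a28, mitoferrin 2 (170.0, against 31.4 to 35.4), and Slc25a44, a carrier of branched-chain amino acids (117.4, against 25.1 to 33.1). Slc25a30 was 5.63-fold lower in it than the mean of the other 4, at 11.4 CPM, next to the range of the knockout samples. Slc25a36, by contrast, was at 65.5 CPM, below every other sample, where the knockout samples were high.

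**Figure D5:**
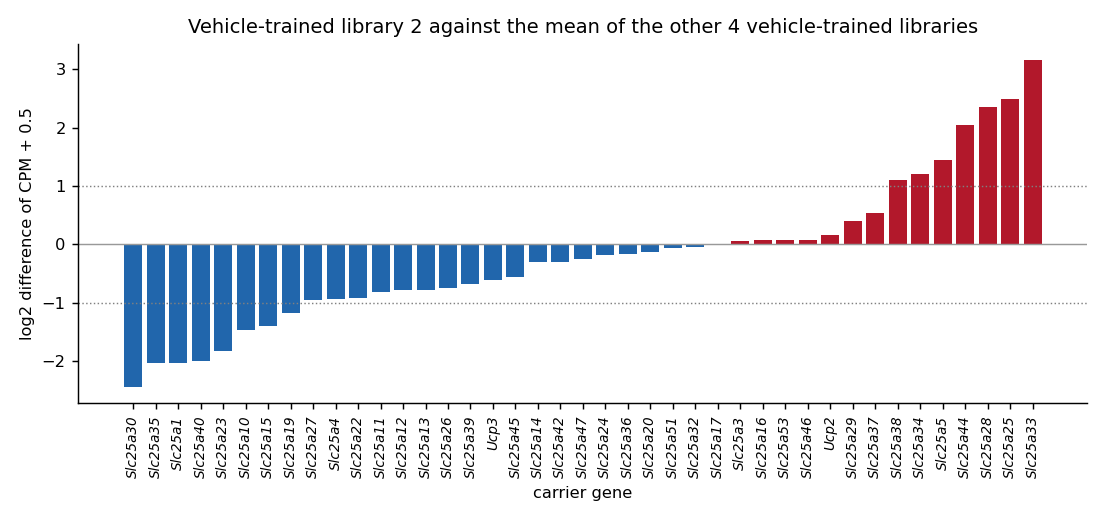
Log2 difference of CPM + 0.5 between vehicle-trained library 2 and the mean of the other 4 vehicle-trained libraries, for each of 41 carriers in order of size, with dotted lines at a 2-fold difference. Slc25a33 is highest at 3.15 and Slc25a30 lowest at -2.44.

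Genes whose log2 CPM over 18 samples was most like that of a carrier were taken as the 5 highest correlations among all tested genes. For Slc25a30 these were Syt9 (r = 0.96), 2610002M06Rik, Mlf1, Smpdl3b and Slc2a3. For Slc25a36 they were Relt (r = 0.97), Ypel2, Gm40841, Myo10 and Wsb1. For Slc25a11 they were Cyc1 (r = 0.96), Oaz2, Uqcrc1, Atp5a1 and Mb, of which Cyc1, Uqcrc1 and Atp5a1 encode respiratory chain or ATP synthase subunits. For Slc25a3 they were Chchd10 (r = 0.90), Pxmp2, Ndufs7, Ube2v1 and Ndufa10, and for Slc25a37 Amy1 (r = 0.95), Slc4a4, Slc7a2, Zbtb20 and Pcgf5. For Slc25a34 they were Mlycd (r = 0.88), Fabp3-ps1, Pank1, Fabp3 and Plin5, and for Slc25a20 Fastk (r = 0.81), Lpl, Fhl2, BC048679 and Bag2. For Slc25a33 they were Nfe2l2 (r = 0.96), Dnajb9, Foxo1, Dnajb6 and Cry2, and without vehicle-trained library 2 the r of these 5 was 0.81, 0.85, 0.75, 0.74 and 0.72. All these points share the same 4 groups and library 2.

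Beside the carriers, 30 other genes of mitochondrial metabolite and ion passage were read from the same fits, and all 30 were tested. In sedentary muscle 0 rose and 2 fell, where 1.02% of all tested genes rose and 1.31% fell. Vdac1, the main channel of the outer membrane, was at 1109.6 ± 62.2 CPM in vehicle and 712.8 ± 31.5 CPM in knockout libraries (SD, n = 5 in both), a log2 difference of -0.69 (SE 0.127, edgeR adjusted p = 0.00406). Mpc1, a subunit of the pyruvate carrier, was at 267.2 ± 36.8 and 175.5 ± 23.5 CPM, a log2 difference of -0.66 (SE 0.123, edgeR adjusted p = 0.00456). Its partner Mpc2 had a log2 change of -0.45 with SE 0.179 and did not pass (edgeR adjusted p = 0.340).

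In trained muscle 0 of the 30 fell, where 1.3% of all tested genes did. Micu2, a regulator of the mitochondrial calcium uniporter, was at 38.04, 31.5, 29.7, 34.7 and 34.3 CPM in vehicle trained libraries and at 46.1, 40.1 and 37.9 CPM in knockout trained samples. The groups overlapped narrowly, at vehicle library 1 and knockout libraries 3 and 5. Its log2 change was 0.34 with SE 0.0877, and it rose (edgeR adjusted p = 0.0420). Without vehicle-trained library 2, Mcu, the pore of the uniporter, and Sfxn3, a sideroflexin, rose in both states. Ckmt2, the mitochondrial creatine kinase, then rose in trained muscle, and Mpc1 fell in trained muscle too. In that fit 6.97% of all tested genes passed in sedentary and 8.66% in trained muscle. Cpt1b and Cpt2, the carnitine palmitoyltransferases that act before and after Slc25a20, did not pass in either state, with log2 changes of 0.04 and -0.14 in sedentary and 0.55 and 0.49 in trained muscle. For training and for the interaction 0 of the 30 passed in the fit of all samples (edgeR), where 0% of all genes did.

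Marker lists of other cell types were read beside these results. In the knockout comparisons no marker of the 8 lists passed in the fit of all samples (edgeR). The 5 satellite cell markers summed to 48.996 to 61.3 CPM in the vehicle sedentary libraries and 88.2 to 108.0 CPM in sedentary libraries labelled knockout, and to 45.0 to 51.3 CPM in vehicle trained libraries without library 2 and 69.4 to 83.4 CPM in knockout trained samples. Most of each sum was Sdc4, which passed without vehicle-trained library 2 in both states, higher in libraries labelled knockout. The values of Pax7, Myf5, Calcr and Chrdl2 overlapped between knockout and vehicle in both states. Pax7 was at 4.09 to 8.25 CPM in the vehicle sedentary libraries and 4.17 to 6.64 CPM in sedentary libraries labelled knockout. In trained muscle every knockout library except library 2 was above all vehicle libraries for Pax7. The sums therefore follow Sdc4 and do not decide whether satellite cells differed in number. The part of satellite cells in the carrier results was not tested.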

How the data were processed

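RNA was measured in 20 libraries of mouse hindlimb muscle. Per the labels' protocols, extraction used Trizol and a column kit, and the library kit was from Illumina. The submitters' processing notes name STAR 2.7.8a, Partek and DESeq2 and the builds mm10 and GRCm39, with no role given. The deposited table gives estimated counts for each gene, 72.6% of them whole, and holds no gene with a total under 10.

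The estimated counts were rounded. Pairs of libraries whose noise at high counts was less than 1.5 times that at low counts were summed, which left 18 samples. Genes with at least 1 CPM in at least 5 libraries were fitted with edgeR 4.0.16 (R 4.3.3; TMM scaling, quasi-likelihood test, 4 group means), two-sided, with Benjamini-Hochberg adjustment within each of 5 contrasts and a threshold of 0.05. CPM values are from plain library totals, with summed pairs averaged, and log2 changes are TMM-scaled. SE is the log2 change divided by the square root of F. The test was tested on simulated data. Lengths, coordinates and overlaps are from GENCODE M21 (GRCm38) and were not matched to the authors' annotation.

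Named carriers were those that passed in any contrast with or without vehicle-trained library 2, the 10 highest in CPM and in CPM per kilobase, and Ucp1 to Ucp3. Of the 5 largest rises and falls per contrast, some but not all are named. Members and lists were chosen with earlier results of these data known. Alternatives were DESeq2 1.42.0, limma 3.58.1 on log2(CPM + 1), RLE scaling, no filter, 20 separate libraries, a replicate block, the compared groups alone, and each sample left out. The limit given for Ucp1 covers counting error only, while SE and SD include the spread between libraries. One gene among the other genes of mitochondrial passage is not reported here.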

Additional observations from a re-analysis of the deposited data

Results flagged for a closer look

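Each carrier was examined for a sample far from the rest of its group in the 3 groups of 5 samples, 123 groups in all, where chance gives about 1 in 20, or 6.15. A gap this wide was found in 16, of which 11 lay on vehicle-trained library 2. The same count over all genes is not given, so an excess over 6.15 cannot be read as a trait of the carriers. Vehicle-trained library 2 held the lowest of all 18 values for 35.6% of all genes and the highest for 24.6%. That library was low for Slc25a4 (1464.3 CPM, against 2706.1 to 3005.3 in the other 4), Slc25a12 (177.4, against 286.4 to 330.8), Slc25a11 (81.4, against 130.7 to 149.6), Slc25a23 (5.09, against 16.9 to 21.1) and Slc25a40 (1.26, against 5.60 to 7.29). It was high for Slc25a25 (368.5 CPM, against 37.0 to 85.7), Slc25a5 (123.0, against 38.2 to 49.3), Slc25a28 (170.0, against 31.4 to 35.4), Slc25a44 (117.4, against 25.1 to 33.1), Slc25a33 (171.9, against 16.8 to 20.6) and Slc25a38 (24.6, against 10.2 to 11.96).

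The other 5 were on other samples. In vehicle-sedentary library 2 Slc25a11 was high at 170.7 CPM, against 151.0 to 156.3. In vehicle-trained library 1 Slc25a20 was high at 79.0 CPM, against 63.4 to 67.2, and Slc25a16 was low at 40.8 CPM, against 45.8 to 47.7. In knockout-sedentary library 4 Slc25a38 was low at 8.43 CPM, against 12.1 to 12.9, and in knockout-sedentary library 1 Slc25a13 was low at 0.527 CPM, against 1.57 to 1.90.

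For 3 carriers every sample of a compared group lay on one side of its reference group's mean in one state and on the opposite side in the other. The share of all genes that meet this rule is not given, so the 3 cannot be read as a trait of the carriers. The training effect on Slc25a11 was higher in knockout than in vehicle muscle by 0.60 on the log2 scale, which did not pass (edgeR interaction, adjusted p = 0.609; 0.48 and 0.242 without vehicle-trained library 2). The knockout effect differed between trained and sedentary muscle by -0.31 for Slc25a5 (adjusted p = 0.831) and by -0.72 for Slc25a44 (adjusted p = 0.738), and without that library by 0.16 and 0.04. For these last 2 the trained vehicle mean was raised by library 2, and the groups overlapped in trained muscle: Slc25a5 had a mean of 60.7 CPM with it and 45.1 without it, and Slc25a44 46.03 and 28.2.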

How the results depend on the processing

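Over 28 alternatives, none of the 13 results for single carriers that passed in some fit reversed. Slc25a30 and Slc25a36 passed in sedentary muscle in all 28 and in trained muscle in 27 of 28. In sedentary muscle the count of 3 was 6 with only the compared groups in the fit, and 6 without vehicle-trained library 2 under RLE scaling, DESeq2 or the replicate block. Leaving out each sample in turn gave 2 to 6. In trained muscle the count of 4 was 11 with 20 separate libraries, 0 with only the compared groups, and 8 without vehicle-trained library 2 in DESeq2, and leaving out each sample gave 2 to 6, lowest without knockout-trained libraries 3 and 5. For training in vehicle muscle the count of 0 was 1 in DESeq2 without vehicle-trained library 2 (Slc25a34, lower), and 0 to 0 leaving out each sample. For training in knockout muscle the count of 0 was 1 with separate libraries and 1 in DESeq2, and without vehicle-trained library 2 it was 1 under RLE scaling and 2 in DESeq2, and it was 0 to 1 leaving out each sample, with 1 without vehicle-trained library 2 and 1 without knockout-trained libraries 1 and 4 (Slc25a3 in both). The interaction gave 1 in DESeq2, 3 in DESeq2 without that library, and 0 to 0 leaving out each sample, and it needs all groups, so the fit of compared groups alone was not run for it. The cause of these changes was not tested. Without vehicle-trained library 2 the share of all genes passing (edgeR) went from 2.33% to 6.97% in sedentary and 3.29% to 8.66% in trained muscle. For the other settings that share is not given, so the counts cannot be read as changes particular to the carriers. The fits of 20 separate libraries, with or without the replicate block, count the near-identical pairs as separate samples. The correlation of deviations between libraries of the same replicate number was -0.37 to 0.32. Of 5 pairs 3, 0, 2 and 4 were over 0.1 in the 4 pairwise comparisons, and 2, 1, 0 and 3 were closest to their own number. Knockout-trained pairs include the near-identical libraries, so these values do not decide whether replicate numbers pair the samples. The replicate block gave 2 and 7 carriers in the knockout comparisons and 0 for training and the interaction, and without vehicle-trained library 2 it gave 6 and 8, with 0 and 2 for training in vehicle and knockout muscle. The 3 settings that join another choice with leaving out that library were chosen after seeing the data. Depth limits the low carriers most, such as Slc25a13 at 0.396 to 2.17 CPM.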
